A study of Homo sapiens with 9 samples.

Results

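SOX8, SOX9 and SOX10 are the 3 genes of the SOXE group of transcription factors, and they were followed in newly made and older RNA of human cranial neural crest cells (CNCCs) after SOX9 protein was removed. They were chosen as the members of the group by name, 3 of the 18970 gene symbols counted in the study. The starting line was H9, an established line of human embryonic stem cells, and both copies of SOX9 had been edited to carry an FKBP12-based degron, the fluorescent protein mNeonGreen and the V5 epitope at the carboxy terminus. The small molecule dTAGV-1 brings the tagged protein to a ubiquitin ligase, and CNCCs at passage 4 were kept in 500 nM of it for 3 or 24 h (the 3h and 24h groups) or not at all (0h), where the protocol names DMSO as the vehicle. The labels put the relative SOX9 level at 100% in the 0h group and 0% in the 3h and 24h groups. Each group held the same 3 cultures, S9CC13_R6, S9CC47_R5 and S9CC47_R6, which stand for 2 clones (S9CC13, S9CC47) and 2 differentiation batches (R5, R6). All 9 libraries therefore carried the tag, had passed through the same differentiation and were given 4-thiouridine (4sU, 100 uM) for the last 2 h. Untagged cells given dTAGV-1 were not analysed here, so loss of SOX9 protein and any other action of the molecule cannot be told apart. Each clone is a single edited line, and S9CC47 supplied 2 of the 3 cultures. The p-values therefore rest on the spread between libraries of these cultures, and the main time contrasts held no term for culture.

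SOXE proteins share a DNA-binding HMG domain and a dimerization domain, and they can bind the same DNA motif, alone or as pairs. SOX9 is known for its part in crest formation and migration and, later, in cartilage, where it drives collagen genes. SOX10 is known for early migratory crest and for its glial and melanocyte derivatives, and SOX8 is often expressed with one or both of the others. In several tissues the 3 genes can stand in for one another in part, and SOXE factors can act on the regulatory regions of their own genes, which is why paralogues and feedback are of interest when one protein is lost.

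In SLAM-seq, 4sU built into RNA is alkylated and then read as T>C conversions. Reads with a conversion (T>C reads) are taken as RNA made during the label. The remaining reads (unconverted reads, total minus T>C) are taken as mostly older RNA. Labelled RNA can also give reads without a conversion. Every library was labelled, so T>C reads that arise without the label could not be measured here. Cells of the 3h group had been in dTAGV-1 for 1 h when the label was added, and those of the 24h group for 22 h. Libraries held 16955633 to 28782678 total reads (median 21356401) and 3130673 to 5475800 T>C reads (median 3957989). The library S9CC13_R6 at 3h had the lowest T>C share, at 15.92% of its reads.

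The label of the cells was compared with marker genes in total reads. The 12 markers of cranial crest mesenchyme were present in every library, and their summed level was 3738 to 3899 CPM (counts scaled to a common library total) at 0h, 4170 to 4269 at 3h and 4939 to 5448 at 24h. Lists of 6 markers each for other cell types were mixed. Of the neural progenitor list SOX1 and HES5 had 0 reads and NES, an intermediate filament that crest cells also make, had a median of 416 CPM. Of the chondrocyte list COL10A1 had 0 reads, whereas COL2A1 and COL9A1 had medians of 278 and 32.7 CPM. The summed level of that list was 339.6 to 371.7 CPM in 0h libraries and 172.3 to 225.1 CPM in 24h libraries. Most of this sum was COL2A1, with means of 320.1 CPM at 0h and 181.7 CPM at 24h, and 4 of the 6 markers had means under 1 CPM at both times. Of the pluripotent list TDGF1 had 0 reads and POU5F1 had 1, whereas LIN28A, an RNA-binding protein, and DPPA4 had medians of 290 and 36.7 CPM. Of the early or migratory crest list FOXD3 had 1 read and SOX10 had 10. NGFR, PAX7, PAX3 and ZIC1 of that list had medians of 208, 52.8, 27.5 and 5.25 CPM. Of the neuron list TUBB3 had a median of 75.1 CPM and PRPH one of 0. The summed melanocyte list lay between 2.072 and 3.706 CPM with TYR at 0. Their part in the results below was not tested. In bulk RNA, fewer cells of a type and less RNA per cell cannot be told apart.

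The 3 paralogues stood at very different levels. Reads here are 3′ end tags, about one per transcript, so CPM values are compared between genes without division by length. Over the 9 libraries SOX9 had 253649 total reads, or 1280 CPM, SOX8 had 8680, or 43.8 CPM (exact Poisson 95% interval 42.9 to 44.7), and SOX10 had 10, or 0.0505 CPM (0.0242 to 0.0928). These intervals cover counting error alone. SOX9 made up 94.04% to 98.33% of the SOXE total reads of a library, SOX8 made up 1.665% to 5.956%, and SOX10 made up the small remainder. In T>C reads summed over untreated and treated libraries, SOX9 was among the most abundant genes. With 148486 T>C reads it was exceeded by 4 of 18769 protein-coding genes, which were RPS29, RPL41, TUBB and KPNB1 (named after their values were seen), whereas 88 genes had more total reads. These sums hold the higher SOX9 counts of the treated libraries. In the 0h group alone SOX9 had means of 764.4 CPM of total and 2374 CPM of T>C reads. SOX8 had 45.71 and 110.6 CPM there. Ranks were not taken for the 0h group alone.

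SOX9 RNA rose after its protein was degraded, in T>C and in unconverted reads within 3 h, and T>C reads rose further by 24 h. In hg38 the gene spans chromosome 17, 72121020 to 72126416, plus strand. Its tag was placed before the stop codon, and the reads count the transcript of the tagged gene. In S9CC13_R6 the normalized T>C reads of SOX9 (counts divided by size factors) were 9493 before dTAGV-1, 18400 at 3h and 23540 at 24h. In S9CC47_R5 the values were 9961, 15050 and 19880, and in S9CC47_R6 they were 9914, 17070 and 20920. The cultures were close together before treatment, every 3h library stood above every 0h library, and every 24h library stood above every 3h library. The means of the 0h, 3h and 24h groups were 9789 ± 258, 16840 ± 1690 and 21450 ± 1890 (SD, n = 3 per group).

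The fitted change in SOX9 T>C reads was 0.77 on the log2 scale at 3h (SE 0.0809, DESeq2 adjusted p = 7.24e-18), a 1.70-fold rise with a 95% interval of 1.52 to 1.90. At 24h it was 1.15 (SE 0.0843, adjusted p = 7.28e-39), or 2.22-fold (1.98 to 2.48). SOX9 was 1 of the 2 members tested and the only one called in each of these contrasts. Of all tested genes 1.79% were called at 3h and 4.98% at 24h (adjusted p under 0.1). The contrast of 24h with 3h, which tests the further rise itself, gave 0.38 (SE 0.0907, adjusted p = 0.00625), and 1.14% of genes were called in it. That last call was lost without S9CC13_R6 (0.29, adjusted p = 1), without S9CC47_R6 (0.38, adjusted p = 0.165), and in the fit with culture as a block and a surrogate variable (0.34, adjusted p = 0.204).

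**Figure D1:**
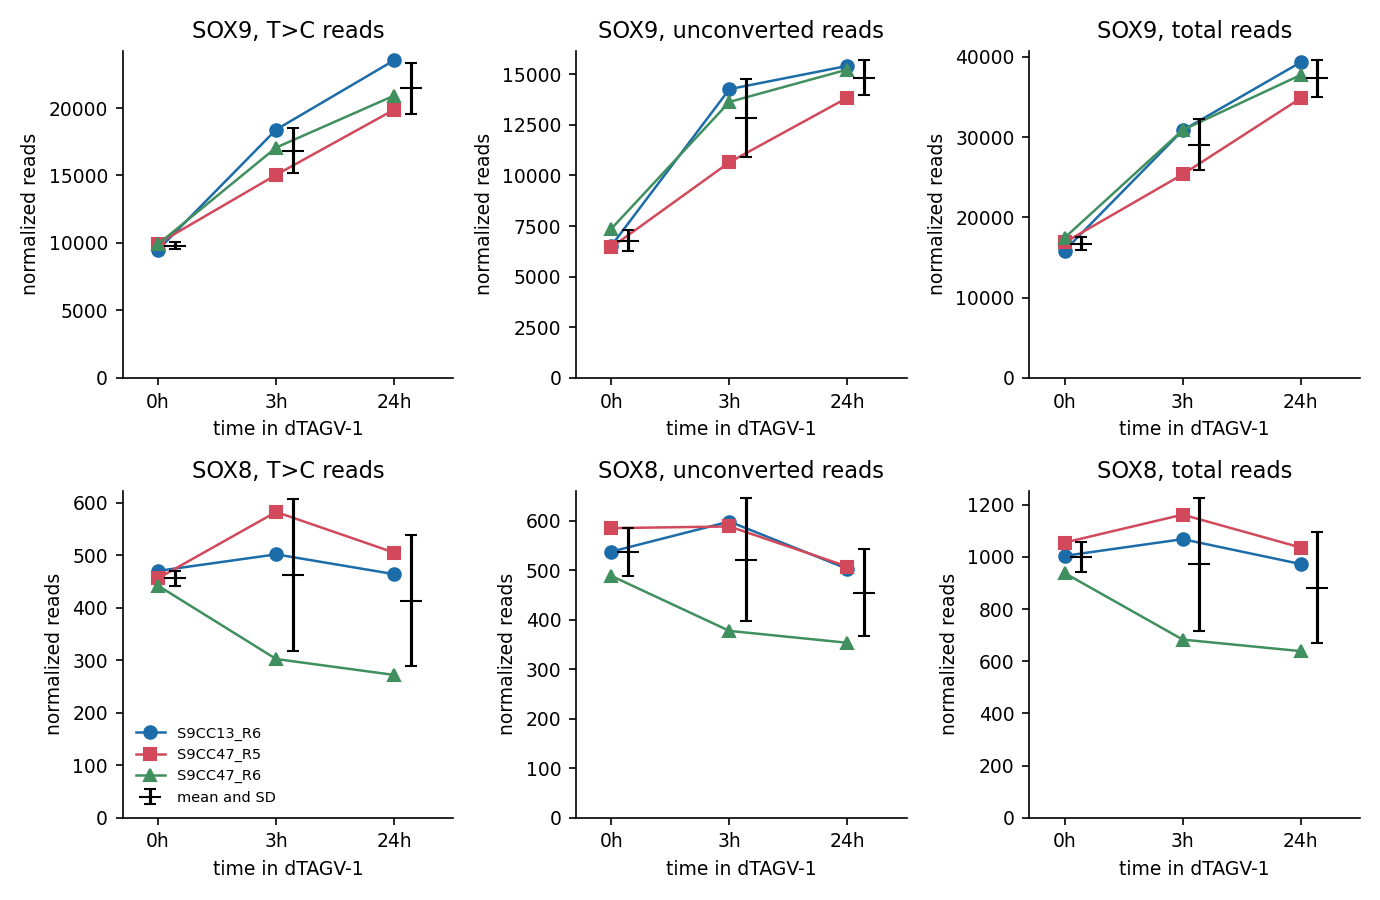
Normalized reads of SOX9 (top row) and SOX8 (bottom row) against time in dTAGV-1, for T>C, unconverted and total reads, with all axes starting at 0. Each line is 1 culture and the black bars are the mean and SD of 3 cultures. SOX9 T>C reads rise from a mean of 9789 to 21450 with all 3 lines going up, while the SOX8 lines part after 0h and S9CC47_R6 falls from 441.8 to 271.9.

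Unconverted SOX9 reads moved in the same way. They can include labelled RNA read without a conversion and RNA made in dTAGV-1 before the label was added. Their rise is therefore not a measured change of RNA made before treatment. The normalized unconverted reads of SOX9 in S9CC13_R6 were 6527 before dTAGV-1, 14260 at 3h and 15410 at 24h. In S9CC47_R5 there were 6450, 10650 and 13840, and in S9CC47_R6 there were 7368, 13630 and 15230. Both treated groups stood clear of 0h, whereas the 3h and 24h groups overlapped. By 3h unconverted SOX9 reads had risen by 0.91 on the log2 scale (SE 0.0847, DESeq2 adjusted p = 7.07e-23), which had the lowest p-value of the 11529 genes tested, where 1.1% were called. The 24h value was 1.13 (SE 0.0884, adjusted p = 2.93e-34), where 12.1% were called. From 3h to 24h the change of 0.22 (SE 0.0935, adjusted p = 0.216) was not called, and 4.59% of genes were.

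In total reads, which hold both classes, the 0h, 3h and 24h groups had 16730 ± 805, 29020 ± 3180 and 37290 ± 2260 normalized SOX9 reads (SD, n = 3 per group). The log2 change at 3h was 0.79 (SE 0.0797, DESeq2 adjusted p = 7.48e-20). By 24h it had reached 1.15 (SE 0.0831, adjusted p = 4.46e-40), and the step between both treated groups was 0.35 (SE 0.0885, adjusted p = 0.00369). Of all genes, 1.89%, 15% and 5.39% were called in these 3 contrasts. The call from 3h to 24h was lost without S9CC13_R6 (0.29, adjusted p = 0.561) and without S9CC47_R5 (0.32, adjusted p = 0.197). At 3h and at 24h against 0h, SOX9 stayed called in every alternative run for T>C, unconverted and total reads.

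Within cultures the size of the rise differed. SOX9 T>C reads at 3h were 1.94 times the 0h value in S9CC13_R6, 1.51 times in S9CC47_R5 and 1.72 times in S9CC47_R6. At 24h the ratios were 2.48, 2.00 and 2.11 in the same order. S9CC13_R6 was highest and S9CC47_R5 lowest at both times. The library S9CC13_R6 at 3h is the one with the lowest T>C share. Without that library the rise of SOX9 in T>C reads remained called at both times. Clone and batch each differ between the cultures at either end of this order, so they cannot be told apart there, and batch R5 held 1 culture.

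SOX8 did not change detectably. Its hg38 position is chromosome 16, 981770 to 986979, plus strand. In S9CC13_R6 the normalized T>C reads of SOX8 were 469.9 before dTAGV-1, 501.4 at 3h and 463.7 at 24h. In S9CC47_R5 it had 455.9, 582.1 and 504.7. In S9CC47_R6 it had 441.8, 302.2 and 271.9. The 0h libraries were close together, and after dTAGV-1 the 3 cultures spread out on both sides of them, with S9CC47_R6 lowest at both times, so that all groups overlapped. The means of the 0h, 3h and 24h groups were 455.9 ± 14.1, 461.9 ± 144 and 413.4 ± 124 (SD, n = 3 per group), and no neighbours in this order differed beyond their spread.

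The fitted 3h change of SOX8 T>C reads was -0.15 (SE 0.141, DESeq2 adjusted p = 0.968). The 24h change was 0.04 (SE 0.146, adjusted p = 0.956). Both signs run against the group means, and without the surrogate variable the values were -0.0088 (SE 0.208, adjusted p = 0.999) and -0.17 (SE 0.208, adjusted p = 0.789). The 95% interval of the fold change with that variable was 0.742 to 1.09 for the 3h group and 0.842 to 1.25 for the 24h group. The fitted SOX9 rise lay above it at both times. These intervals rest on that model and on 3 cultures, so they do not exclude such a rise of SOX8. Taken within cultures without a model, the 3h to 0h ratio of SOX8 T>C reads was 1.07 in S9CC13_R6, 1.28 in S9CC47_R5 and 0.684 in S9CC47_R6. The 24h to 0h ratio was 0.987, 1.11 and 0.616 in the same order. From 3h to 24h SOX8 T>C reads were lower in each culture (log2 ratios of -0.11, -0.21 and -0.15), yet the fitted change was 0.19 (SE 0.16, adjusted p = 0.877) with the surrogate variable and -0.16 without it (adjusted p = 0.795). The signs of the SOX8 changes at 24h, against 0h and against 3h, therefore depended on that covariate.

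Unconverted and total SOX8 reads gave no call either. For the 0h, 3h and 24h groups, SOX8 unconverted reads were 537.5 ± 48.3, 521.8 ± 125 and 454.9 ± 87.6, and total reads were 999.3 ± 58.7, 971.0 ± 254 and 882.7 ± 213 (normalized, SD, n = 3 per group). S9CC47_R6 was again the lowest culture at each time, with 938.2, 683.2 and 638.9 total reads in time order, against 1055, 1162 and 1036 in S9CC47_R5. The smallest unadjusted p-value for SOX8 in these 6 contrasts was 0.109, for total reads at 3h (-0.17, SE 0.103, DESeq2 adjusted p = 0.79).

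**Figure D2:**
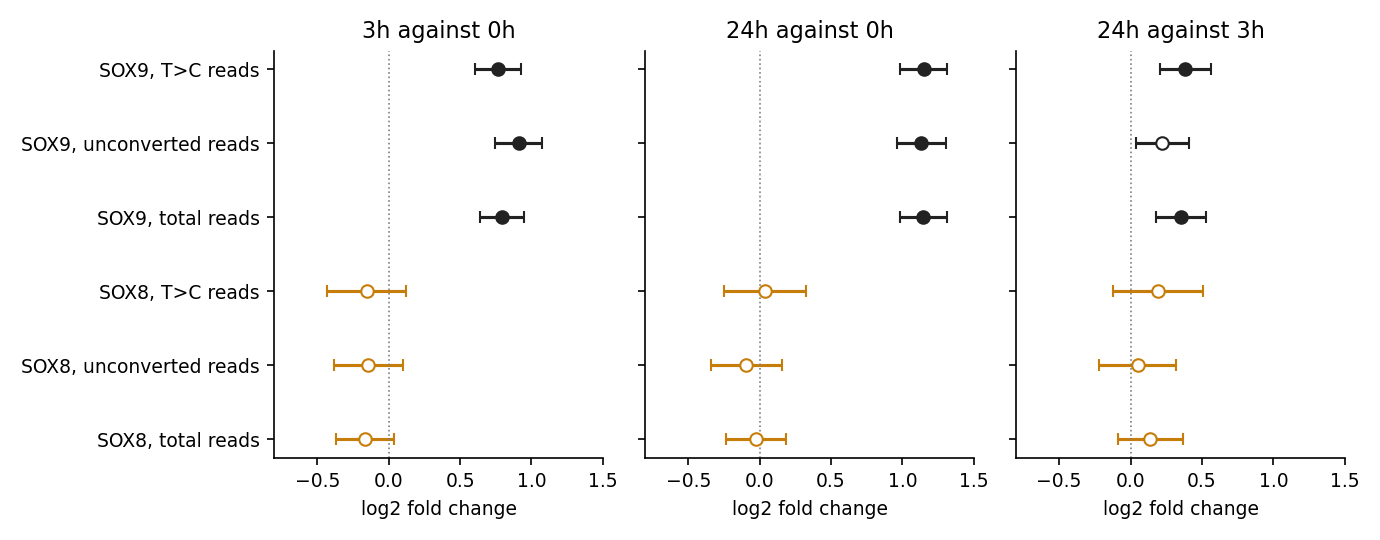
Fitted log2 fold changes of SOX9 (black) and SOX8 (orange) with 95% intervals, for the 3 contrasts and the 3 kinds of reads. Filled points passed an adjusted p of 0.1 and open points did not. SOX9 sits between 0.77 and 0.91 in the 3h contrast and between 1.13 and 1.15 in the 24h contrast, whereas each SOX8 interval includes 0.

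SOX10, the paralogue of early and glial crest, was close to absent. Its hg38 position is chromosome 22, 37970686 to 37987422, minus strand, inside the span of POLR2F on the opposite strand. S9CC13_R6 had 1 total SOX10 read at 0h, 3 reads at 3h and 0 at 24h. The counts were 2, 0 and 2 in S9CC47_R5 and 0, 0 and 2 in S9CC47_R6. Summed over cultures the 0h, 3h and 24h groups had 3, 3 and 4 reads, so each time showed a trace. A count of 0 allows up to 3 reads, or 0.104 to 0.177 CPM of total reads in these libraries. Its T>C reads were 1 in S9CC13_R6 at 0h, 1 in S9CC47_R5 at 0h and 0 in the other 7 libraries, and SOX10 did not reach the level set for testing in any measure. A gain of SOX10 above this floor was not seen, and a change within it was not detectable at this depth.

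The ratio of SOX9 to SOX8 removes whatever the genes share within a library. In T>C reads there were 20.2, 21.8 and 22.4 SOX9 reads per SOX8 read in the 0h libraries, in the order S9CC13_R6, S9CC47_R5, S9CC47_R6. At 3h the ratios were 36.7, 25.9 and 56.5, and at 24h they were 50.8, 39.4 and 76.9. The ratio was higher at 3h than at 0h, and at 24h than at 3h, in 3 of 3 cultures. On the log2 scale it rose by 0.81 on average at 3h (SD 0.546 over cultures) and by 1.32 at 24h (SD 0.464), with no overlap with 0h (exact two-sided permutation test p = 0.1 for each, 0.188 after Benjamini-Hochberg adjustment over 15 comparisons of ratios and shares). With 3 libraries against 3 the smallest p this test allows is 0.1, and the exact sign-flip test over 3 cultures gave its smallest, 0.25. In unconverted reads the log2 ratio rose by 0.98 at 3h (SD 0.272) and 1.39 at 24h (SD 0.112). The largest ratios were those of S9CC47_R6, the culture in which SOX8 was lower.

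**Figure D3:**
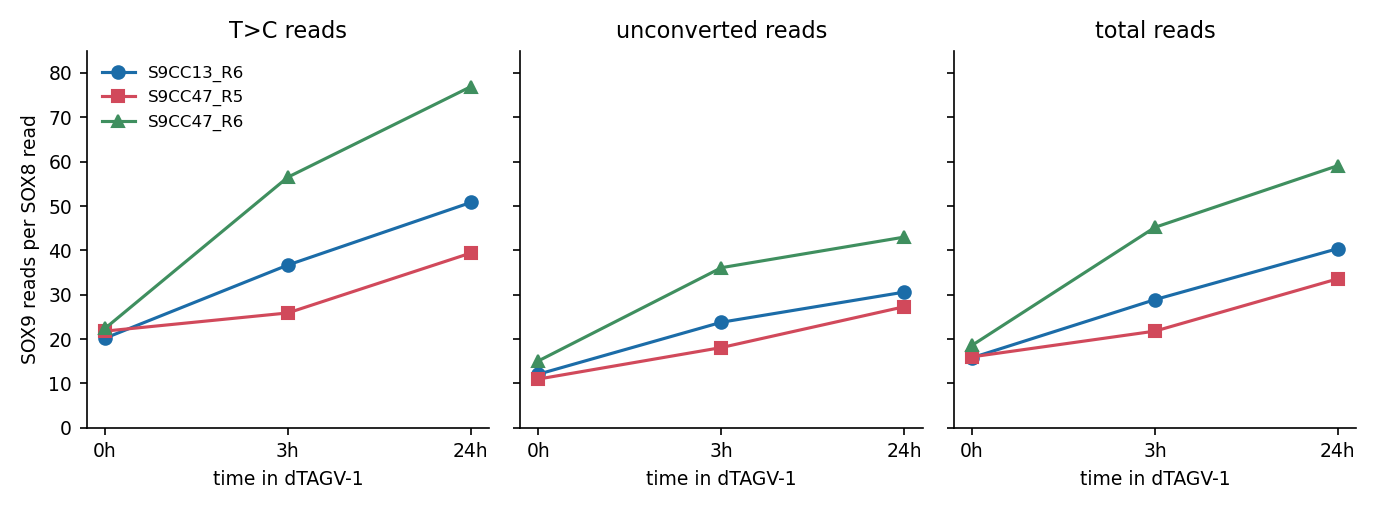
SOX9 reads per SOX8 read against time in dTAGV-1, for T>C, unconverted and total reads, with 1 line per culture and axes starting at 0. The 3 cultures lie between 20.2 and 22.4 at 0h in T>C reads and spread to 39.4 to 76.9 at 24h.

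The share of a gene's reads that carried a conversion sets T>C against unconverted reads within one library. Shares of different genes also depend on how many T bases the counted stretch holds, so the members were set beside all genes with that limit. SOX9 had a T>C share of 57.99%, 62.69% and 57.78% in the 0h libraries, in that order (Wilson 95% intervals 57.22% to 58.76%, 61.86% to 63.51% and 57.14% to 58.43%). At 3h the shares were 49.96%, 56.99% and 55.81%, and at 24h they were 61.02%, 61.43% and 61.54%. In each library the SOX9 share exceeded that of 92.58% to 95.02% of the genes set beside it (up to 11710), and the median gene had 22.13% to 29.3%.

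From 0h to 3h the SOX9 share changed by -5.23 percentage points on average (SD 3.06) and was lower in 3 of 3 cultures. It went from 59.49% ± 2.77 to 54.25% ± 3.76 (SD, n = 3, exact permutation p = 0.1, adjusted p = 0.188). The median share over genes fell too, from a mean of 27.0% to 24.7%, and after it was subtracted the SOX9 difference was -2.97 points (exact permutation p = 0.2). At 24h the share was 61.3% ± 0.278, which was 1.84 points above 0h and higher in 2 of 3 cultures (exact permutation p = 0.4). SOX8 shares in the 0h, 3h and 24h groups were 46.36% ± 1.35, 44.02% ± 4.43 and 49.41% ± 2.70 (SD, n = 3), and all of these groups overlapped. Its lowest value was 39.32% in S9CC13_R6 at 3h, the library with the lowest share over all its reads, and its highest was 52.43% in S9CC47_R5 at 24h.

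A model with both read classes asked whether T>C and unconverted reads changed unequally. For SOX9 the difference between the 2 changes was -0.13 at 3h (SE 0.0809, DESeq2 adjusted p = 0.999), with an interval of -0.29 to 0.03, and 0.0039 at 24h (SE 0.0808, adjusted p = 0.999), with an interval of -0.15 to 0.16. For SOX8 it was 0.04 at 3h and 0.07 at 24h, also not called. Of all genes 0.343% and 0.0176% were called at these times, and from 3h to 24h 0.915%, where SOX9 gave 0.14 (SE 0.0803, adjusted p = 0.685). Unequal change of T>C and unconverted reads of either gene was not detected.

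**Figure D4:**
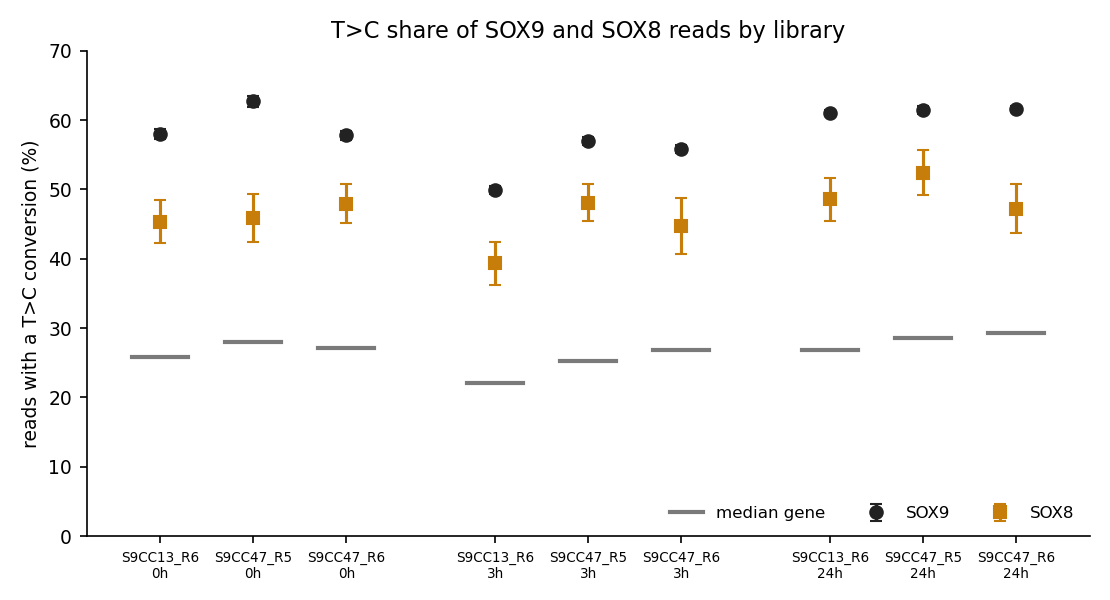
Percent of the reads of SOX9 (black circles) and SOX8 (orange squares) with a T>C conversion in each library, with Wilson 95% intervals, and the median over genes (grey bars). SOX9 lies between 49.96% and 62.69%, SOX8 between 39.32% and 52.43%, and the median gene between 22.13% and 29.3%.

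The genes whose normalized T>C reads followed SOX9 most closely over the 9 libraries, among 8675 genes with a mean of at least 50, were SPSB1 (Pearson r = 0.965), NAV1 (0.963), FAM126A (0.962), CEBPD (0.957) and DUSP4 (0.954). These are descriptions over libraries that share cultures and fall into 3 time groups, so a gene that rises with time will score high. CEBPD, a CCAAT-binding transcription factor, rose on the log2 scale by 1.06 and 2.28 at 3h and 24h (DESeq2 adjusted p = 3.57e-05 and 1.09e-25). DUSP4, a phosphatase of MAP kinases, rose by 0.57 and 0.72 (adjusted p = 1.27e-05 and 8.56e-09). SPSB1, an adaptor of a ubiquitin ligase, rose by 0.75 and 0.91 (adjusted p = 0.0115 and 0.000478). The 5 genes closest to SOX8 were GADD45GIP1 (0.958), GPATCH3 (0.953), SETD1A (0.951), MED22 (0.947) and CDT1 (0.944), none of which was called in T>C reads at 3h or 24h against 0h.

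The loci around the 3 genes were checked for shared movement. The nearest 2 protein-coding genes on each side made 12 neighbours, 7 of which reached the level for testing. In T>C reads 0 of the 7 were called at 3h or at 24h (DESeq2, 1.79% and 4.98% of all genes). At an unadjusted p under 0.05 there were 0 at 3h and 2 at 24h, against 882 and 1633 of the 12037 genes tested, and edgeR also called 0, against 288 and 968. In unconverted reads 1 of 6 neighbours tested was called lower at 24h, where 12.1% of all genes were called. Total reads also gave 1 of 6 lower, where 15% were called. LMF1, which starts 452 bases from SOX8 on the opposite strand, changed by -0.54 at 24h (SE 0.313, adjusted p = 0.472). The nearest genes to SOX9 on either side are KCNJ2, at 1940976 bases, and SLC39A11, at 519533 bases, which changed by 1.58 (SE 1.31, adjusted p = 0.699) and -0.63 (SE 0.311, adjusted p = 0.345). The KCNJ2 value rests on few reads, with 9 T>C reads summed over the 0h libraries and 20 over the 24h libraries. SOX9 is overlapped by the antisense RNAs SOX9-AS1 and ENSG00000288605. Whether counting used the strand is not given in the sources used here, so reads of SOX9 and of those RNAs, or of SOX10 and POLR2F, could be mixed.

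Several cartilage genes that SOX9 binds or drives fell. Of 26 on the list 16 were tested, and in T>C reads at 24h 0 were higher and 7 lower (DESeq2 adjusted p under 0.1), where 2.38% of all genes were higher and 2.59% lower, with a median log2 change of -0.62 against 0.0015 for all genes. COL2A1, the main cartilage collagen, went from 775.7 ± 27.0 to 360.4 ± 74.4 normalized T>C reads (SD, n = 3; -1.10, SE 0.134, adjusted p = 8.73e-14). PRELP, a small leucine-rich proteoglycan, went from 96.9 ± 8.36 to 9.71 ± 3.52 (-3.14, SE 0.408, adjusted p = 5.35e-12). SOX5, a SOXD factor that acts with SOX9 at cartilage genes, went from 259.0 ± 36.2 to 108.7 ± 7.76 (-1.26, SE 0.193, adjusted p = 1.52e-08). SOX6, the second such SOXD factor, COL9A1, COL11A1 and the ubiquitin ligase WWP2 were the other 4. At 3h 1 member, SOX5, was called (-0.85, SE 0.181, adjusted p = 0.000402), where 1.01% of all genes were higher and 0.789% lower, and 0 were called without S9CC13_R6 or without S9CC47_R6. The count of lower genes at 24h was 2 without S9CC13_R6, 4 without S9CC47_R5, 4 without S9CC47_R6 and 5 without the 3h library of S9CC13_R6. ACAN, COMP and MATN1, which mark mature cartilage, were below the level for testing.

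Transcription factors of crest and mesenchyme, the setting in which SOX9 works, were called more often upward than downward. Of 32 listed 31 were tested, and at 24h 15 were higher and 1 lower in T>C reads, with a median of 0.36, while at 3h 5 were higher and 0 lower. Of all genes 2.38% were higher and 2.59% lower at 24h, and 1.01% and 0.789% at 3h. MSX1, a homeobox factor of facial mesenchyme, had 6576 ± 685, 10680 ± 1520 and 15290 ± 1570 normalized T>C reads in the 0h, 3h and 24h groups (SD, n = 3; log2 change 1.204 at 24h, SE 0.0779, DESeq2 adjusted p = 7.2e-50). TFAP2A, a factor of crest induction, rose by 0.67 at 24h (SE 0.103, adjusted p = 1.69e-08). FOXC1, a forkhead factor of periocular and skull mesenchyme, was the 1 that fell (-0.62, SE 0.0958, adjusted p = 1.92e-08). Among the others that rose were PRRX2, ALX1, TWIST1, TWIST2, SNAI1, PAX3, MSX2, GLI3, TFAP2B, ID1, ID2 and ID3. Summed crest mesenchyme markers, 10 of the 12 being genes of this list, also rose between 0h and 24h, and their part in these counts was not tested. The count of higher genes at 24h was 2 without S9CC13_R6, 9 without S9CC47_R5, 5 without S9CC47_R6 and 9 without the 3h library of S9CC13_R6. At 3h these counts were 3, 2, 2 and 3.

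Genes of the glial and melanocyte programme of SOX10 were in large part below the level for testing, as SOX10 itself was. Of 30 listed 13 were tested, with 2 higher and 3 lower at 24h in T>C reads, against 2.38% and 2.59% of all genes. ERBB3, the neuregulin receptor of glial precursors, had 40.4 ± 4.86, 6.29 ± 4.86 and 1.64 ± 1.47 normalized T>C reads in the same order of groups (SD, n = 3; DESeq2 adjusted p = 7.15e-05 at 24h). MIA, a secreted protein of melanoma and cartilage, also fell (adjusted p = 0.0977). RET, a GDNF receptor of enteric crest, rose from 12.8 ± 4.77 to 83.1 ± 17.8 (2.85, SE 0.451, adjusted p = 4.76e-08), and NGFR, a neurotrophin receptor of crest cells, rose by 0.47 (SE 0.127, adjusted p = 0.0104). These falls came with a summed level of 7 Schwann cell and glia markers, ERBB3 among them, of 12.03 to 17.55 CPM of total reads at 0h, 7.597 to 11.74 at 3h and 1.19 to 1.634 at 24h. MBP and CDH19 were at or near 0 throughout. The counts at 24h were 1 higher and 0 lower without S9CC13_R6, 1 and 1 without S9CC47_R5 and 1 and 2 without S9CC47_R6.

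Genes for proteins that pair with SOXE factors, modify them or carry them into the nucleus were tested as a list of 28. In T>C reads 2 were higher and 5 lower at 24h, and 1 higher and 2 lower at 3h, where 4.98% and 1.79% of all genes were called in either direction. PIAS1, a SUMO ligase, rose by 0.40 within 3 h (SE 0.114, DESeq2 adjusted p = 0.0368) and stood 0.55 above 0h by 24 h (SE 0.118, adjusted p = 0.000258). SOX5 and SOX6 are counted in this list too, and SOX6 changed by -0.73 at 24h (SE 0.121, adjusted p = 2.59e-07) and by 0.05 at 3h (adjusted p = 0.998). CALM2, one of the calmodulin genes, was the other that rose, and CHD7, a chromatin remodeller of crest, WWP2 and ZNF219 were the other 3 that fell. At 24h 0 members were called in either direction without S9CC13_R6, 2 higher and 2 lower without S9CC47_R5, 0 and 2 without S9CC47_R6, and 2 and 3 without the 3h library of S9CC13_R6. At 3h they were 0 and 0, 0 and 1, 0 and 0, and 0 and 2 in that order.

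The ligase machinery that dTAGV-1 recruits and the cells' own FKBP12 gene were tested as a list. The degron carries an altered form of FKBP12, and binding of dTAGV-1 to the cells' own form was not measured. Of 16 genes for VHL, its cullin complex, the E2 enzymes and FKBP12, 16 were tested and 0 were called in T>C reads at 3h or 24h (DESeq2, 1.79% and 4.98% of all genes). At an unadjusted p under 0.05 there were 0 at 3h and 2 at 24h, against 882 and 1633 of 12037 genes, and edgeR called 0 and 1, against 288 and 968 of 12037. The lowest adjusted p-values at 24h were those of UBE2D1 (0.40, SE 0.165, adjusted p = 0.207), UBE2D3 (-0.17, adjusted p = 0.309) and CDC34 (-0.23, adjusted p = 0.461). In unconverted reads at 24h 4 of the 16 were called, where 12.1% of all genes were.

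**Figure D5:**
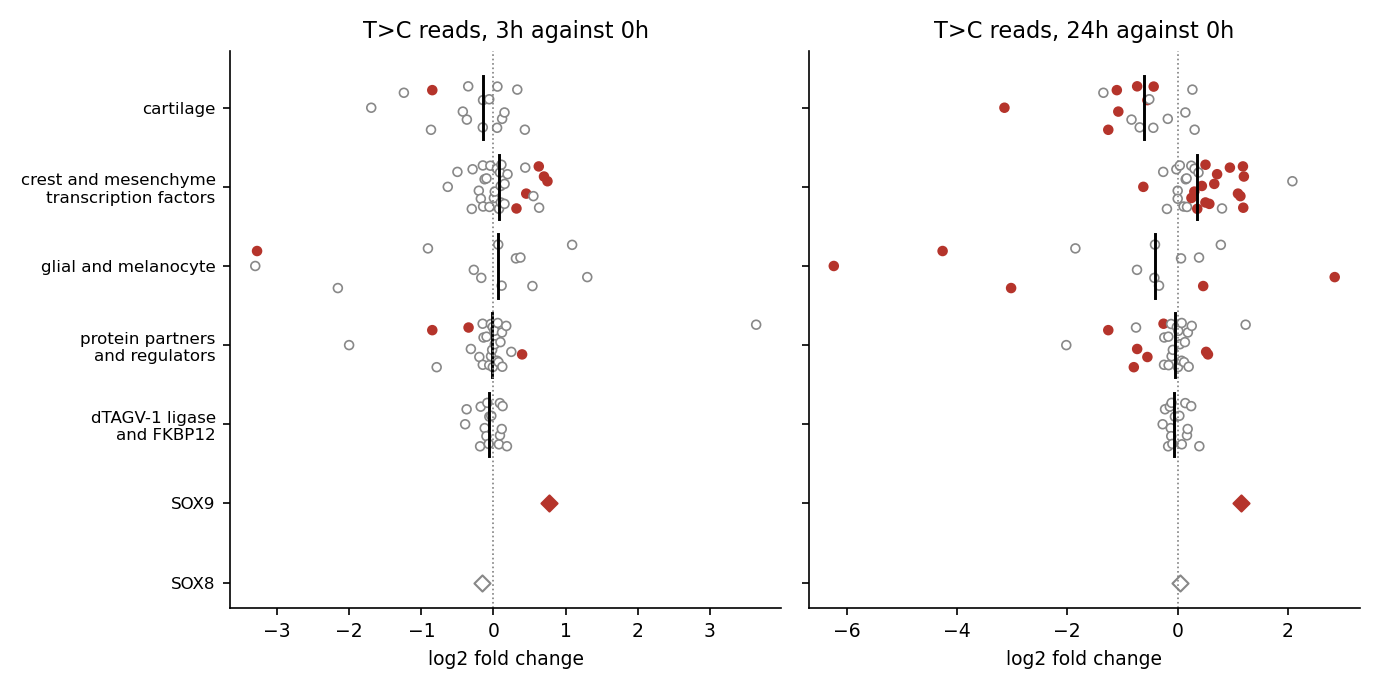
Fitted log2 fold changes of T>C reads at 3h (left) and 24h (right) against 0h for the genes of 5 lists, with SOX9 and SOX8 as diamonds. Filled red points passed an adjusted p of 0.1, open points did not, and black bars are list medians. Vertical scatter within a list has no meaning, and the fitted value of a gene with 0 reads in a group is no measured fold. At 24h the cartilage genes have a median of -0.62 and the crest transcription factors one of 0.36, with SOX9 at 1.15 and SOX8 at 0.04.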

How the data were processed

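The authors deposited 2 tables of raw counts per gene symbol, of all reads and of reads with a T>C conversion. Per their methods, read 1 of 3′ end libraries (QuantSeq FWD) was trimmed with skewer and of poly(A), then mapped and counted with slamdunk; the labels name hg38. Counts were used as deposited. Gene positions came from GENCODE v44. Raw counts of 9 libraries entered DESeq2 (version 1.42.0) with time, batch and 1 surrogate variable (svaseq, sva 3.50.0), over protein-coding genes with 1 CPM in at least 3 libraries (12037 genes for T>C reads, 11529 unconverted, 11710 total). Independent filtering was off, and calls used a Benjamini-Hochberg adjusted p-value under 0.1. T>C and unconverted reads were also fitted together with library as a block and read class by time. The time contrast without the surrogate variable and the fit of both read classes were tested on simulated data. The surrogate variable was not part of that simulation. Alternatives were edgeR 4.0.16, other normalizations, covariates and filters, and leaving out cultures.

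The members and the gene lists were chosen with earlier results of these data known. SOX8, SOX9 and SOX10 were named always, then the 3 members of each list with the lowest adjusted p-value in T>C reads at 24h against 0h, the 5 genes most like each tested member, and the neighbours. Other genes are named where a count of called members is spelled out. Some genes within these rules are not reported here. Cultures pair libraries across times through the clone and batch in the titles; deviations from group means correlated at 0.131 on average within cultures in T>C reads (9 pairs, 0.0169 to 0.286).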

Additional observations from a re-analysis of the deposited data

Results flagged for a closer look

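The effect of dTAGV-1 on SOX9 differed between 24h and 3h. In T>C reads the contrast of 24h with 3h gave a log2 change of 0.38 (SE 0.0907, DESeq2 adjusted p = 0.00625), with more reads at 24h in 3 of 3 cultures. In total reads it gave 0.35 (SE 0.0885, adjusted p = 0.00369), also in 3 of 3 cultures. Both calls were lost when some cultures were left out, and unconverted reads of the same libraries were not called (0.22, adjusted p = 0.216).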

How the results depend on the processing

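SOX9 kept its rise and its call at 3h and 24h against 0h in all alternatives run: 0.685 to 0.862 and 0.975 to 1.26 on the log2 scale in T>C reads, 0.807 to 1.01 and 1.06 to 1.17 in unconverted reads, and 0.694 to 0.891 and 0.985 to 1.22 in total reads. From 3h to 24h it lost its call in T>C reads with the replicate block and 1 surrogate variable (0.34), and with a culture or the 3h library of S9CC13_R6 left out it ran from 0.29 to 0.40 in T>C reads and from 0.29 to 0.41 in total reads. The replicate block by itself gave SOX9 T>C values of 0.78, 1.13 and 0.35 for the 3h, 24h and 24h against 3h contrasts, and changed no call of SOX9 or SOX8.

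SOX8 was called in none of the alternatives, and the sign of its small changes turned in several. Its T>C change at 24h became -0.17 when the surrogate variable was dropped, -0.21 under the replicate block, -0.014 under that block plus a surrogate variable, -0.14 when every covariate was dropped and -0.21 from the 6 samples compared. At 3h it became 0.021 with every covariate dropped. From 3h to 24h it became -0.16, -0.16 and -0.16 (surrogate variable dropped, replicate block, every covariate dropped). In unconverted reads the 24h against 3h change became -0.20, -0.19 and -0.20 under those same settings, -0.0079 under the replicate block plus a surrogate variable and -0.015 with all genes of at least 1 count. In total reads it became -0.14, -0.14 and -0.14, and the 24h change became 0.092 from the 6 samples compared. With a culture or that 3h library left out, the SOX8 change in T>C reads was -0.28 to 0.22 for 3h and -0.16 to 0.34 between the treated groups. In unconverted reads it ran from -0.15 to 0.078 at 3h, -0.16 to 0.11 at 24h and -0.23 to 0.23 between them. In total reads it ran from -0.19 to 0.11, -0.038 to 0.21 and -0.15 to 0.30.

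The difference between T>C and unconverted change of SOX9 at 24h was -0.0048 with edgeR and -0.034 to 0.056 with a culture left out. For SOX8 it ran from -0.12 to 0.14 at 3h, -0.070 to 0.22 at 24h and -0.033 to 0.070 between them. The SOX8 share rose by 1.88 points from 3h to 24h once the median over genes was subtracted, and the log2 ratio of SOX9 to SOX8 rose by 0.40 between these times in unconverted reads. Of 846 values of other named genes, 764 kept direction and call, 43 lost a call, 17 gained one and 22 changed sign, each uncalled at that contrast. At 3h C22orf23 was 0.35 with edgeR, 1.23 and 1.28 without the surrogate variable and without covariates, and 1.09 and 1.5 under the replicate block without and with a surrogate variable. CDC34 was 0.052 and 0.055 without the surrogate variable and without covariates, and 0.038 under the block. LMF1 was 0.0060 and 0.012 under the block without and with a surrogate variable, and SOX6 was -0.028 with size factors from total reads. C22orf23 from 3h to 24h was -0.054 under the block with a surrogate variable. With a culture or library left out, the 3h values ran from -0.34 to 1.07 for C22orf23, -0.041 to 0.16 for CDC34, -0.20 to 0.31 for LMF1, -0.058 to 0.026 for FOXC1 and -0.063 to 0.21 for UBE2D1, and C22orf23 from 3h to 24h ran from -0.27 to 5.10. The causes were not tested. Over all genes, T>C calls numbered 216, 599 and 137 for 3h, 24h and 24h against 3h, with 59, 54 and 20 without S9CC13_R6, up to 288 and 968 with edgeR and 530 for the third under the replicate block. Unconverted calls (127, 1396, 529) fell to 28, 131 and 91 and total calls (221, 1751, 631) to 64, 154 and 93 without that culture, and the third contrast rose to 1166 and 1544 under the block. Calls of unequal change (39, 2, 104) fell to 7, 0 and 4 without the library term. Without S9CC47_R6 the surrogate variable of T>C and total reads could not be fitted and was left out. Depth limits SOX10, with 10 total reads.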
